A study of Mus musculus with 9 samples.

Results

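Type I interferon response genes were followed in mesenchymal stromal cells derived from mouse bone marrow, through 38 genes chosen by name as established interferon-stimulated genes and found 38 of 38 in the deposited table of 21959 genes. Of these, 37 had an FPKM (fragments per kilobase of transcript, scaled to the library's assigned fragments) of at least 1 in at least 3 libraries and were tested. The exception was Mx1. The 38 were chosen with earlier results of these data known, so their shares beside those of all genes describe and do not test. Mesenchymal stromal cells are adherent support cells of the marrow with immunomodulatory secretion, and the labels mark this line SV40, the virus whose large T antigen is used to immortalise cells. RNA was sequenced from 9 libraries in 3 groups of 3, all labelled as the same line, grown in DMEM/F12 medium with 10% FBS and antibiotics. One group was kept for 24 h with PF (peritoneal interstitial fluid) of control mice, one with PF of mice treated with TNBS for 3 days, and one with PBS (phosphate-buffered saline). TNBS is a hapten that provokes colitis when given to mice. The groups are called control PF, TNBS PF and PBS. The sources used here give neither the strain, sex and age of the fluid donors nor whether fluid was pooled. Whether the 3 libraries of each group came from separate cultures is not stated, so the p-values measure the spread between these libraries, which may be technical.

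Type I interferons bind the receptor of Ifnar1 and Ifnar2, whose kinases Jak1 and Tyk2 phosphorylate STAT proteins such as Stat2. With Irf9 these form the transcription factor ISGF3, which binds the interferon-stimulated response element (ISRE) in promoters of antiviral genes. Many cells hold a low tonic level of the same genes without infection, and stromal cells respond to interferon with antiviral effectors, antigen presentation and chemokines.

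Depth, recovered from the deposited values, was 17.9 to 20.3 M assigned fragments in PBS, 18.6 to 21.5 M in control PF and 22.9 to 25.6 M in TNBS PF, so depth differed with the group and its part in the results was not tested. All 12 markers of mesenchymal stromal cells were expressed, and their summed level, though not that of each marker, moved with the group. Their summed FPKM was 1527 to 1605 in PBS, 1490 to 1506 in control PF and 1382 to 1428 in TNBS PF. In TNBS PF against PBS, 5 were called lower, with Pdgfrb (-0.42, adjusted p = 2.61e-05) and Pdgfra (-0.36, adjusted p = 0.000215) furthest, and 2 higher, Nt5e (0.44, adjusted p = 0.00361) and Vcam1 (0.15, adjusted p = 0.00726). Thy1, Eng, Vim, Cd44 and Cxcl12 were called in neither direction. Of all tested genes, 8.88% were called lower and 7.8% higher in this comparison. In control PF against PBS, Cd44 was called lower (-0.21, adjusted p = 0.00189) and Nt5e higher (0.39, adjusted p = 0.0326). In TNBS PF against control PF, Pdgfrb, Pdgfra, Ly6a and Col1a2 were called lower, and Cd44 and Vcam1 higher. Of the general leukocyte markers Ptprc, Coro1a, Laptm5 and Cd53, 0 of 4 reached the tested level and their summed FPKM was at most 1.07 in any library. Of 10 macrophage and monocyte markers, 2 were tested, and the list summed to 14.5 to 15.8 FPKM in PBS, 15.3 to 17.4 in control PF and 16.3 to 18.2 in TNBS PF. Most of this was Cd14, which was higher in TNBS PF against PBS (0.19, adjusted p = 0.03), while C1qa, C1qb and Timd4 were listed at 0. Siglech of plasmacytoid dendritic cells, Cd3d and Cd8a of T cells and Ms4a1 of B cells were listed at 0 in all libraries. Of the 8 dendritic cell markers, 2 were at 0 throughout and 2 were tested, Bst2 and Tcf4. The list summed to 318 to 346 FPKM in PBS, 298 to 312 in control PF and 294 to 318 in TNBS PF. Most of this was Bst2, itself an interferon response gene followed here. Tcf4 was lower in TNBS PF against PBS (-0.14, adjusted p = 0.0316). The summed FPKM of 12 mesothelial markers was 47.8 to 48.6 in PBS, 46.2 to 47.6 in control PF and 52.6 to 57.9 in TNBS PF, and the part of these marker differences in the results was not tested.

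The interferon response genes were expressed at a clear level in PBS without added fluid. Their mean FPKM in PBS ran from 320.2 for Bst2, which encodes the virion-retaining membrane protein tetherin, and 210.4 for the ubiquitin-like modifier Isg15 down to 0.899 for Mx1. It was at least 10 in 31 of 38. The interferon genes themselves were near or at 0. Of 20 interferon genes in the table, 16 were listed at 0 in all 9 libraries, Ifng, Ifnk, Ifnl2 and Ifnl3 among them, and Ifna4 and Ifnz did not exceed 0.159 FPKM. Ifnb1 was at 0 in 6 libraries and reached 0.143 FPKM in control PF 2, 0.0531 in TNBS PF 1 and 0.131 in PBS 3. Ifne reached 0.412 FPKM in TNBS PF 2 and 0.0657 in TNBS PF 3 and was listed at 0 in the other libraries.

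**Figure D1:**
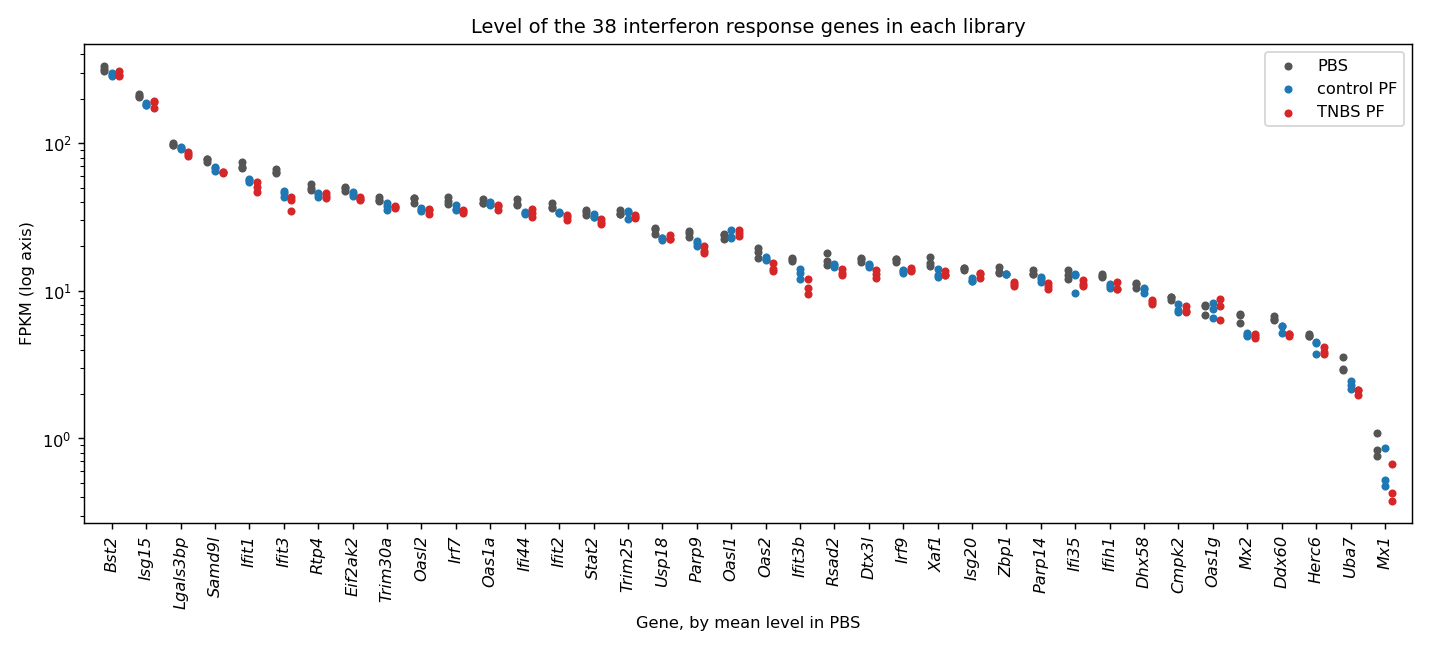
FPKM of each of the 38 genes (log axis) in every library, with 3 points per group, genes ordered by mean level in PBS. The levels span from about 320.2 for Bst2 to 0.899 for Mx1, and for most genes the PBS points lie above those of both fluids.

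The interferon response genes were lower with either fluid than with PBS. In control PF 15 of 37 tested members were lower and 0 were higher by limma at an adjusted p threshold of 0.05, where 1.14% of all 10537 tested genes were called lower and 1.02% higher (2.15% in either direction). In TNBS PF 31 of 37 were lower and 0 higher, against 8.88% of all genes called lower and 7.8% higher. The median log2 fold change of the tested members was -0.17 in control PF and -0.24 in TNBS PF, against 0.00 and -0.01 over all tested genes. The changes were small for each gene, from 38.5% lower for Ifit3 in TNBS PF to 4.91% higher for Oasl1. Both comparisons share the PBS libraries, and 14 members were called lower in both, which is 93.3% of the 15 and 45.2% of the 31. Of the 31 calls in TNBS PF, 28 passed in all 19 alternative analyses, or in all 18 that tested them (Herc6 and Uba7). Of the 15 calls in control PF, 4 passed in all 19 (Ifit3, Irf9, Mx2 and Samd9l). Of the other 11, Ifit1 was lost with no filter on low values (adjusted p = 0.0506), and the rest (Ifi44, Ifih1, Ifit3b, Isg15, Isg20, Oasl2, Parp9, Uba7, Usp18 and Xaf1) were each lost without control PF 1 and in other alternatives, with their highest adjusted p between 0.0614 for Isg20 and 0.159 for Ifit3b. Leaving out control PF 1, 2 or 3 changed the control PF count to 5, 8 and 7, and leaving out PBS 1 or PBS 3 changed it to 7, and the median stayed between -0.19 and -0.14 with any 1 library left out. RNA came from whole cultures, so fewer responding cells and less RNA per cell cannot be told apart.

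Most members had no overlap between a fluid and PBS. All 3 control PF libraries lay below all 3 PBS libraries for 29 of 37 members, where 9.32% of all tested genes did so, and above them for 0 of 37, where 9.33% did so. For TNBS PF against PBS the number was 34 of 37, against 19.7% of all genes. The log2 fold change was negative for 36 of 37 members in control PF and 35 of 37 in TNBS PF, against 49.5% and 53.9% of all tested genes. By group mean, 29 of 37 members were ordered PBS, control PF, TNBS PF from high to low, 6 were lowest in control PF, and 2, Oasl1 and Oas1g, were not highest in PBS.

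**Figure D2:**
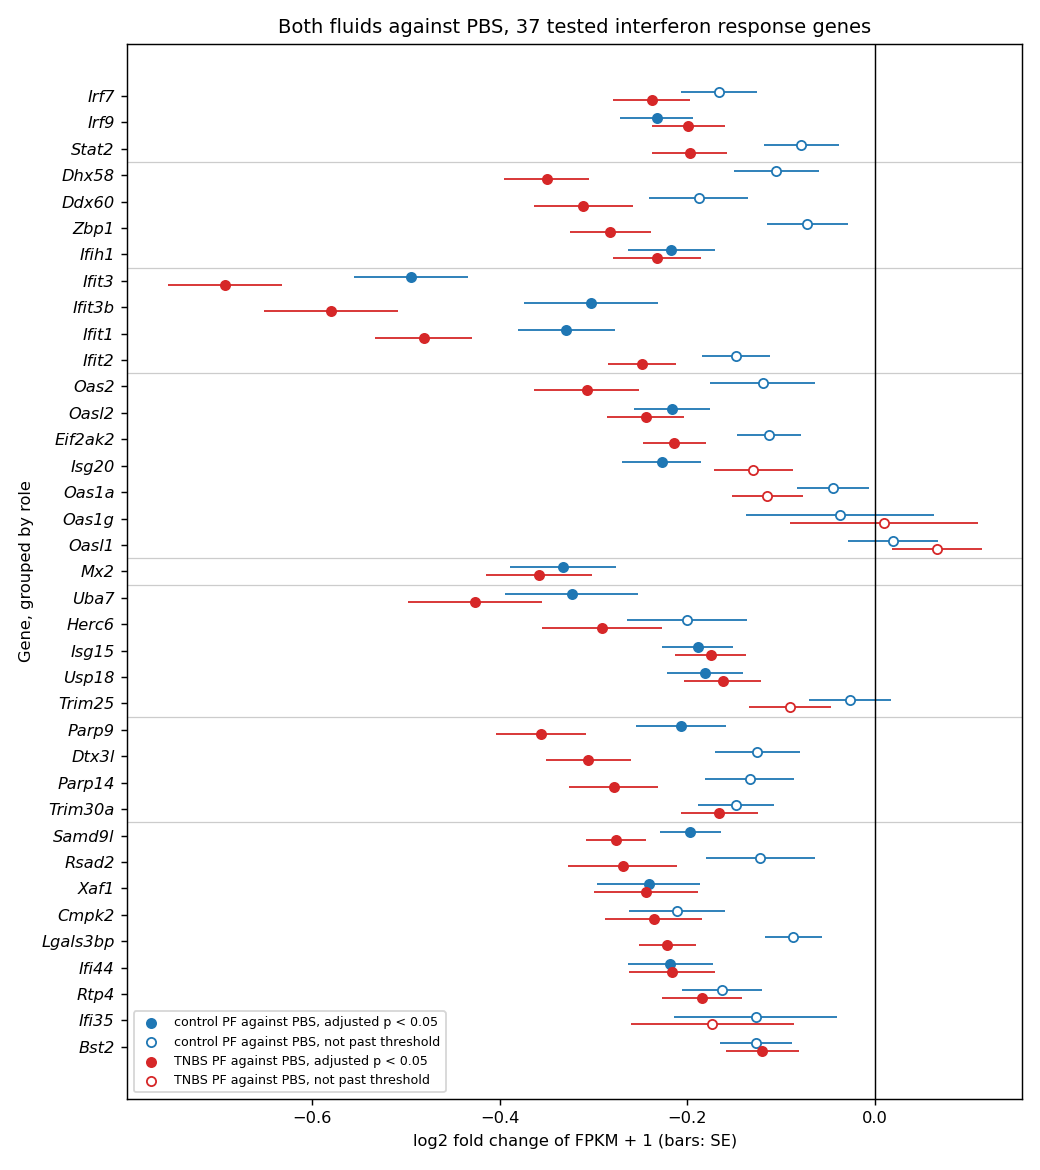
The log2 fold change of FPKM + 1 with its standard error for the 37 tested genes in control PF and in TNBS PF against PBS, grouped by role, with filled points past an adjusted p of 0.05. The values lie left of 0 for 36 of 37 genes in control PF and 35 of 37 in TNBS PF, and Ifit3 reaches furthest, to -0.69 in TNBS PF.

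The position of single libraries was shared by many members. In each library, the median of log2(FPKM + 1) over the members minus the mean of PBS was 0.04, -0.03 and -0.01 in PBS 1 to 3, -0.21, -0.14 and -0.14 in control PF 1 to 3, and -0.20, -0.28 and -0.22 in TNBS PF 1 to 3. Over all tested genes the same median stayed between -0.01 and 0.01. The 3 PBS libraries stood above the other 6, and control PF and TNBS PF overlapped, with control PF 1 below TNBS PF 1. TNBS PF 2 was the lowest library of its group for 28 of 37 members (75.7%) and for 36.2% of all tested genes. Control PF 1 was the lowest of its group for 27 of 37 members (73.0%) and for 37.2% of all tested genes. Without TNBS PF 2, 28 members were called lower in TNBS PF against PBS.

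**Figure D3:**
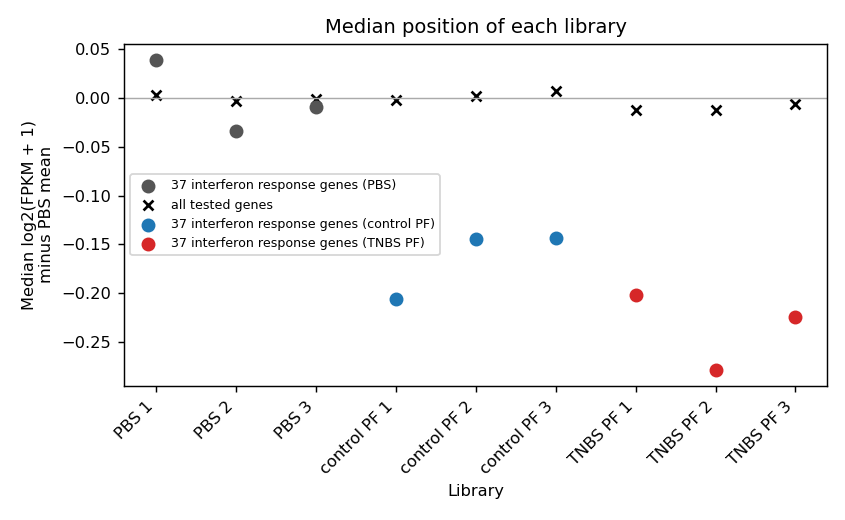
Median difference of log2(FPKM + 1) from the PBS mean in each library, for the 37 tested interferon response genes (circles) and for all 10537 tested genes (crosses). The circles of the 6 fluid libraries lie between -0.14 and -0.28 while the crosses stay near 0.

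The IFIT genes encode a family of antiviral proteins, of which that of Ifit1 binds viral RNA lacking host cap marks. All 4 were lower in TNBS PF against PBS and 3 of 4 in control PF, against 8.88% and 1.14% of all tested genes. Ifit3 measured 66.5, 63.3 and 64.2 FPKM in PBS, 43.3, 46.0 and 47.6 in control PF, and 43.0, 35.0 and 41.3 in TNBS PF. Every library of either fluid lay under every PBS library. It was 29.5% lower in control PF (log2 fold change -0.50, SE 0.0609, limma adjusted p = 0.00139) and 38.5% lower in TNBS PF (-0.69, adjusted p = 1.11e-05). Ifit1 measured 69.0, 68.1 and 75.3 FPKM in PBS, 56.6, 57.4 and 54.3 in control PF, and 54.4, 46.6 and 50.5 in TNBS PF. It was 20.8% lower in control PF (-0.33, adjusted p = 0.00538) and 28.7% lower in TNBS PF (-0.48, adjusted p = 5.66e-05). Ifit3b measured 16.4, 16.8 and 16.0 FPKM in PBS, 14.2, 13.2 and 12.01 in control PF, and 12.03, 9.48 and 10.5 in TNBS PF. It was 19.9% lower in control PF (-0.30, adjusted p = 0.0461) and 34.9% lower in TNBS PF (-0.58, adjusted p = 0.00017). The control PF call of Ifit3b was lost without any 1 of 7 libraries (all 3 of control PF, all 3 of PBS and TNBS PF 3), with adjusted p between 0.0153 and 0.159 over the alternatives. Ifit2 was 10.0% lower in control PF without passing (adjusted p = 0.0532) and 16.3% lower in TNBS PF (adjusted p = 0.000591).

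The 4 IFIT genes lie side by side on the plus strand of chromosome 19 within 99.3 kb (mm10, 34550694 to 34650009). Ifit3 and Ifit3b are near copies. Of the 50-base words of the annotated Ifit3 transcripts, 51.2% also occur in Ifit3b, and 44.5% of those of Ifit3b occur in Ifit3, so reads could be split between them and the values of this pair are uncertain. Their promoters are also alike. The RefSeq promoter table (GRCm38.p6) gave a window for 29 of the 38 genes, and the 250 bases before the start site were searched on both strands for the ISRE core, a pair of GAAA half-sites (TTTC on the other strand) with 2 bases of any kind between them, allowing matches to overlap. It was found in 11 of 29 members (37.9%) and in 3.46% of all 27025 genes with a window. The longer form, the core followed directly by CT, was found in 8 of 29 members (27.6%) and in 0.255% of all genes. The gamma-activated sequence TTCNNNGAA, bound by STAT dimers, was found in 5 of 29 members (17.2%) and 8.13% of all genes. Ifit1, Ifit3 and Ifit3b had the largest differences of the tested members in TNBS PF against PBS. In control PF, Mx2 (-0.33) and Uba7 (-0.32) had larger differences than Ifit3b (-0.30). Mx2 had no window, and that of Uba7 held no core match. The stretches around the ISRE cores of Ifit1, Ifit3 and Ifit3b are shown on the plus strand of chromosome 19, with matches in capitals.
Ifit1, chr19:34640765-34640833: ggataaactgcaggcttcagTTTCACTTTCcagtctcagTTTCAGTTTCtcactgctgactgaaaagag
Ifit3, chr19:34583353-34583436: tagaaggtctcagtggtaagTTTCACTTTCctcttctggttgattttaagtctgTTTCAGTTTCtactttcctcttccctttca
Ifit3b, chr19:34607749-34607832: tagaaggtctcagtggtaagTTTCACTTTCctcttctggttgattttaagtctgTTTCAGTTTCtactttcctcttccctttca
Each held 2 core matches, and the stretches of Ifit3 and Ifit3b were identical in 84 of 84 bases. The members' values are given by match as a description. Of the 11 with a match, 4 were lower in control PF and 9 in TNBS PF, with median log2 fold changes of -0.15 and -0.20. Of the 18 without, 8 and 14 were lower, with medians of -0.20 and -0.23. Of all tested genes, 1.14% were called lower in control PF and 8.88% in TNBS PF. The 11 include the near copies Ifit3 and Ifit3b, and Oas1a and Oas1g. A gene without a match lacked the exact core in these 250 bases only, which does not show that it has no ISRE. Whether the difference goes with the motif was not tested.

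Of the 3 transcription factors among the members, 3 were lower in TNBS PF against PBS and 1, Irf9, in control PF. Of all tested genes, 8.88% and 1.14% were. Irf9, the DNA-binding part of ISGF3, measured 15.6, 16.4 and 16.4 FPKM in PBS, 13.6, 13.9 and 13.2 in control PF, and 14.3, 13.8 and 13.7 in TNBS PF. Both fluids lay under all PBS libraries, 15.8% lower in control PF (-0.23, SE 0.039, adjusted p = 0.00864) and 13.7% lower in TNBS PF (-0.20, adjusted p = 0.00396). Stat2 measured 35.4, 32.5 and 34.2 FPKM in PBS, 31.8, 31.6 and 33.0 in control PF, and 29.4, 28.4 and 30.8 in TNBS PF. Control PF overlapped PBS (adjusted p = 0.373), while TNBS PF was 13.2% lower (-0.20, adjusted p = 0.00485). Irf7, the factor that amplifies interferon transcription, was 15.6% lower in TNBS PF (adjusted p = 0.00172) and 11.2% lower in control PF, just short of the threshold (adjusted p = 0.051).

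All 4 RNA and DNA sensors were lower in TNBS PF against PBS and 1 of 4 in control PF. The shares of all tested genes were 8.88% and 1.14%. Ifih1, which encodes the long double-stranded RNA sensor MDA5, measured 13.0, 12.6 and 12.4 FPKM in PBS, 10.5, 11.1 and 10.7 in control PF, and 11.4, 10.3 and 10.2 in TNBS PF. It was lower in both fluids (-0.22, adjusted p = 0.0304, and -0.23, adjusted p = 0.00457), and control PF and TNBS PF overlapped. Dhx58, which encodes LGP2, the regulator of RNA sensors without its own signalling domain, measured 11.3, 11.1 and 10.5 FPKM in PBS, 9.71, 10.3 and 10.4 in control PF, and 8.47, 8.11 and 8.63 in TNBS PF. Its TNBS PF values lay below the other 6 libraries, 23.5% under PBS (-0.35, adjusted p = 0.000254). Exons of Dhx58 overlap those of Dhx58os on the opposite strand by 141 bases, so reads there cannot be told apart without strand. Zbp1, a sensor of Z-form nucleic acid that can start necroptosis, measured 14.6, 13.4 and 13.3 FPKM in PBS, 13.0, 13.1 and 13.0 in control PF, and 11.4, 10.8 and 11.2 in TNBS PF. Its TNBS PF values too lay below the other 6 libraries, 19.1% under PBS (-0.28, adjusted p = 0.000843), while control PF did not pass (-0.07, adjusted p = 0.458). The helicase gene Ddx60 was 22.4% lower in TNBS PF (adjusted p = 0.00169) and 14.0% lower in control PF without passing (adjusted p = 0.0919).

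The OAS family makes an oligoadenylate messenger of the antiviral response. In TNBS PF against PBS, 2 of its 5 members here were lower, against 8.88% of all tested genes. Oas2 measured 19.5, 16.7 and 18.2 FPKM in PBS, 16.5, 17.0 and 16.2 in control PF, and 15.5, 13.7 and 14.2 in TNBS PF. It was 20.3% lower in TNBS PF (-0.31, adjusted p = 0.00269), with control PF overlapping PBS. Oasl2 was lower in both fluids, by 14.3% in control PF (-0.22, adjusted p = 0.0139) and 16.0% in TNBS PF (-0.24, adjusted p = 0.00144). Oasl1, an OAS-like gene known as a translational brake on Irf7, had a mean above PBS in both fluids, with 24.1, 22.6 and 24.2 FPKM in PBS, 23.0, 25.7 and 23.3 in control PF, and 24.9, 23.7 and 25.9 in TNBS PF. Its groups overlapped, and the 95% interval of its log2 fold change in TNBS PF against PBS ran from -0.04 to 0.17. Oas1a and Oas1g did not pass either (adjusted p = 0.058 and 0.963 in TNBS PF against PBS). These neighbours on chromosome 5 share 57.6% of the 50-base words of Oas1a, so the split between them is uncertain. The ISRE matches next to their start sites, are shown on the minus strand because these near copies carry the core match and passed in no comparison. Capitals mark the stretch covered by 2 overlapping core matches.
Oas1a, chr5:120907528-120907565: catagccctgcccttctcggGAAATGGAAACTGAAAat
Oas1g, chr5:120887614-120887651: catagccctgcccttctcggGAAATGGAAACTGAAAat
The stretches were identical in 38 of 38 bases. Eif2ak2, the double-stranded RNA kinase PKR that halts translation, was 14.1% lower in TNBS PF (-0.21, adjusted p = 0.00103) and 7.71% lower in control PF without passing (adjusted p = 0.11). The exonuclease gene Isg20 had the opposite order of the fluids. It measured 13.8, 14.2 and 14.3 FPKM in PBS, 11.6, 12.3 and 11.7 in control PF, and 12.2, 13.1 and 13.1 in TNBS PF, and passed in control PF (-0.23, adjusted p = 0.0136) but not in TNBS PF (-0.13, adjusted p = 0.0515). The difference between the fluids did not pass (0.10, adjusted p = 0.166).

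Mx2, a dynamin-like antiviral GTPase, measured 7.01, 6.04 and 6.87 FPKM in PBS, 4.97, 5.02 and 5.17 in control PF, and 4.92, 4.81 and 5.11 in TNBS PF. It was 23.9% lower in control PF (-0.33, SE 0.0566, adjusted p = 0.00874) and 25.4% lower in TNBS PF (-0.36, adjusted p = 0.000993), and the fluids overlapped each other. Its neighbour Mx1 on chromosome 16, known to be defective in many laboratory strains, had 1.10, 0.841 and 0.759 FPKM in PBS, 0.479, 0.526 and 0.868 in control PF, and 0.378, 0.672 and 0.427 in TNBS PF, and was not tested.

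The ISG15 system attaches a ubiquitin-like tag to proteins. Isg15 itself measured 209, 215 and 207 FPKM in PBS, 182, 189 and 182 in control PF, and 194, 174 and 191 in TNBS PF. Both fluids lay under PBS, by 12.3% in control PF (-0.19, adjusted p = 0.0213) and 11.4% in TNBS PF (-0.18, adjusted p = 0.00716). The activating enzyme gene Uba7 measured 3.58, 2.93 and 2.93 FPKM in PBS, 2.18, 2.46 and 2.29 in control PF, and 1.98, 2.13 and 2.13 in TNBS PF. Its 26.7% lower level in control PF passed (-0.32, adjusted p = 0.0325), as did the 34.0% lower level in TNBS PF (-0.43, adjusted p = 0.00153). Usp18, which removes the tag and restrains the receptor, measured 26.5, 24.5 and 26.2 FPKM in PBS, 21.99, 22.7 and 23.0 in control PF, and 23.9, 22.4 and 22.3 in TNBS PF. It was lower in both (-0.18, adjusted p = 0.0355, and -0.16, adjusted p = 0.0161). The TNBS PF call was lost without TNBS PF 2, TNBS PF 3, PBS 1 or PBS 3 (adjusted p up to 0.0661). The ligase gene Herc6 was lower in TNBS PF (-0.29, adjusted p = 0.00797), and the ligase gene Trim25 passed in neither comparison (adjusted p = 0.833 and 0.181). Exons of Herc6 overlap those of Gm45193 on the same strand by 1269 bases, and those of Uba7 overlap Gm20661 by 233 bases. Other genes share 12.5% of the 50-base words of Herc6 and 2.52% of those of Uba7, so part of their reads is uncertain.

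Parp9 and Dtx3l encode partners of 1 ubiquitin ligase complex, and lie head to head beside Parp14 within 139.7 kb of chromosome 16. Exons of Parp9 and Dtx3l overlap on opposite strands by 458 bases, and the sources used here do not say whether counting used strand. Parp9 measured 24.6, 23.3 and 25.4 FPKM in PBS, 20.1, 21.0 and 21.9 in control PF, and 20.04, 18.0 and 18.5 in TNBS PF. It was lower in control PF (-0.21, adjusted p = 0.041) and in TNBS PF (-0.36, adjusted p = 0.000334). Dtx3l and Parp14 passed in TNBS PF (-0.31, adjusted p = 0.000634, and -0.28, adjusted p = 0.0017) and not in control PF (adjusted p = 0.191 and 0.184). Trim30a, a feedback regulator of innate signalling, passed in TNBS PF alone among these 2 comparisons (-0.17, adjusted p = 0.0144), with control PF at -0.15 (adjusted p = 0.0859), and its call was lost without TNBS PF 2 or PBS 3 (adjusted p up to 0.0596).

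Among the other effectors, Samd9l, a translation inhibitor, measured 78.2, 78.7 and 74.7 FPKM in PBS, 68.4, 68.6 and 64.7 in control PF, and 62.8, 64.4 and 63.5 in TNBS PF. The 3 groups did not overlap in either step, and it was lower in control PF (-0.20, SE 0.0324, adjusted p = 0.00807) and in TNBS PF (-0.28, adjusted p = 0.000116). Xaf1, a pro-apoptotic gene, and Ifi44 were lower in both fluids (-0.24 and -0.22 in control PF, -0.24 and -0.22 in TNBS PF). Rsad2, which encodes viperin, and its head-to-head neighbour Cmpk2, which supplies it with nucleotides, were lower in TNBS PF (-0.27, adjusted p = 0.00708, and -0.24, adjusted p = 0.0076). Neither passed in control PF (adjusted p = 0.335 and 0.0519). Rtp4 was lower in TNBS PF (-0.18, adjusted p = 0.0105). Its exons overlap those of Gm45338 on the same strand by 296 bases, and 11.6% of its 50-base words occur there, so part of its reads is uncertain. Bst2, the most abundant member, measured 317, 336 and 308 FPKM in PBS, 288, 302 and 289.6 in control PF, and 308, 284 and 291 in TNBS PF. Its TNBS PF call (-0.12, adjusted p = 0.0494) was lost in 12 of 19 alternatives, 7 of which left out 1 library, with adjusted p between 0.015 and 0.176. Ifi35 did not pass in either comparison (adjusted p = 0.525 and 0.195).

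Setting the fluids against each other asks what TNBS treatment of the donors added. This comparison shares its libraries with both comparisons above. Of 37 tested members, 5 were lower and 0 higher, where 5.45% of all tested genes were called lower and 5.15% higher. The median was -0.07 over the members and -0.01 over all tested genes, and 29 of 37 members had a negative value, as did 55.7% of all genes. All 3 TNBS PF libraries lay below all 3 control PF libraries for 15 of 37 members, against 18.2% of all genes. They lay above for 0 of 37, against 13.6% of all genes. The 5 were Ifit3b (-0.28, adjusted p = 0.0265), Dhx58 (-0.25, SE 0.0456, adjusted p = 0.00435), Zbp1 (-0.21, SE 0.0434, adjusted p = 0.00812), Dtx3l (-0.18, adjusted p = 0.0228) and Lgals3bp (-0.13, adjusted p = 0.013). Lgals3bp, a secreted glycoprotein that binds galectins, measured 98.1, 97.7 and 101.1 FPKM in PBS, 91.9, 94.8 and 92.5 in control PF, and 87.2, 82.0 and 85.0 in TNBS PF. Dhx58 and Zbp1 were 17.2% and 14.6% lower and passed in all 19 alternatives. The calls of Ifit3b, Dtx3l and Lgals3bp were each lost without TNBS PF 2, with adjusted p up to 0.103, 0.0948 and 0.0685 over the alternatives. That of Ifit3b was also lost without control PF 1, control PF 2 or TNBS PF 3, that of Dtx3l without control PF 1, control PF 3 or TNBS PF 1, and that of Lgals3bp without control PF 2. Leaving out TNBS PF 2 gave 2 calls, control PF 1 or control PF 2 gave 3, and TNBS PF 1 gave 8. The median was -0.11 without control PF 1.

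**Figure D4:**
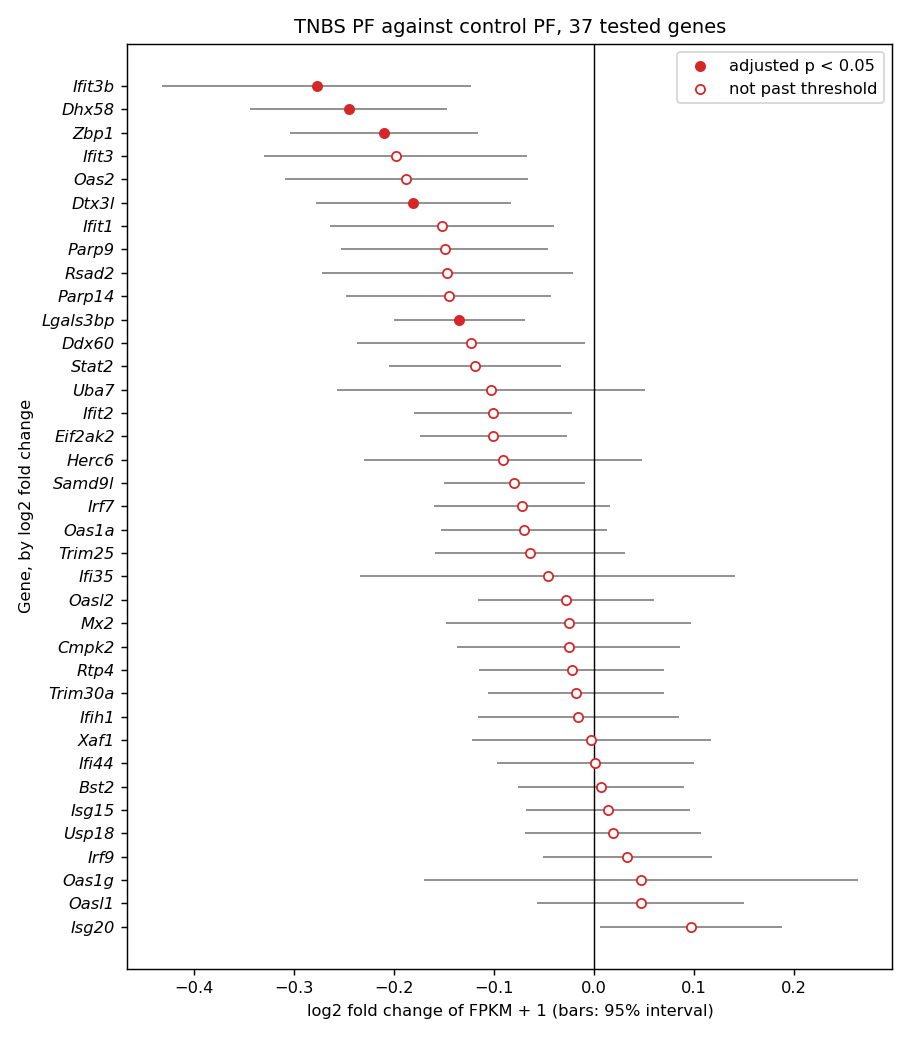
The log2 fold change of FPKM + 1 in TNBS PF against control PF for the 37 tested genes, with 95% intervals and filled points past an adjusted p of 0.05. The 5 filled points lie between -0.28 and -0.13, and the lowest row, Isg20, is an open point at 0.10 whose interval lies above 0, from 0.01 to 0.19.

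Other members differed from PBS in both fluids with no detectable difference between the fluids. Irf9 had a log2 fold change of 0.03 in TNBS PF against control PF, with a 95% interval from -0.05 to 0.12. That of Isg15 was 0.01, from -0.07 to 0.10, and that of Usp18 was 0.02, from -0.07 to 0.11. Mx2 lay at -0.03, from -0.15 to 0.10. A value that misses the threshold does not show that the fluids acted alike on these genes. Ifit3 (-0.20, adjusted p = 0.0565) and Oas2 (-0.19, adjusted p = 0.0501) fell just short, and each TNBS PF library of both lay below each control PF library.

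The receptor chains had another order of groups than most effectors. Ifnar1 measured 19.8, 19.5 and 19.5 FPKM in PBS, 20.6, 21.97 and 20.8 in control PF, and 18.8, 18.4 and 18.6 in TNBS PF. Ifnar2 measured 9.67, 9.84 and 9.98 FPKM in PBS, 10.7, 10.4 and 11.2 in control PF, and 8.87, 9.85 and 9.03 in TNBS PF. Both receptor chains were highest in control PF and lower in TNBS PF than in control PF (Ifnar1 -0.18, adjusted p = 0.00685, Ifnar2 -0.20, adjusted p = 0.0177), while neither differed from PBS past the threshold (adjusted p = 0.165 and 0.247 in control PF, 0.184 and 0.267 in TNBS PF). The Ifnar2 call was lost without control PF 3, TNBS PF 1 or TNBS PF 3, with adjusted p up to 0.0783. Jak1 was lower in TNBS PF against PBS (-0.13, adjusted p = 0.00716), and Tyk2 passed in no comparison (adjusted p = 0.998, 0.434 and 0.491). Of the signalling list, 13 of 24 genes were tested. In TNBS PF against control PF 3 were lower and 0 higher, against 5.45% and 5.15% of all tested genes. Stat3 (-0.18, adjusted p = 0.00625) was lower beside the receptor chains. In control PF against PBS 0 were lower and 0 higher by limma, against 1.14% and 1.02% of all tested genes. There 8 of the 13 had a negative value, as did 49.5% of all tested genes. Ifnar1 (0.10) and Ifnar2 (0.12) lay above PBS and Jak1 (-0.08) below it, none past the threshold. In TNBS PF against PBS 4 were lower and 0 higher, against 8.88% and 7.8% of all tested genes. Among the lower were Jak1, Stat3 (-0.16, adjusted p = 0.0112) and the factor gene Irf1 (-0.14, adjusted p = 0.031). The Irf1 call was lost without PBS 2, PBS 3 or any 1 TNBS PF library (adjusted p up to 0.108).

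**Figure D5:**
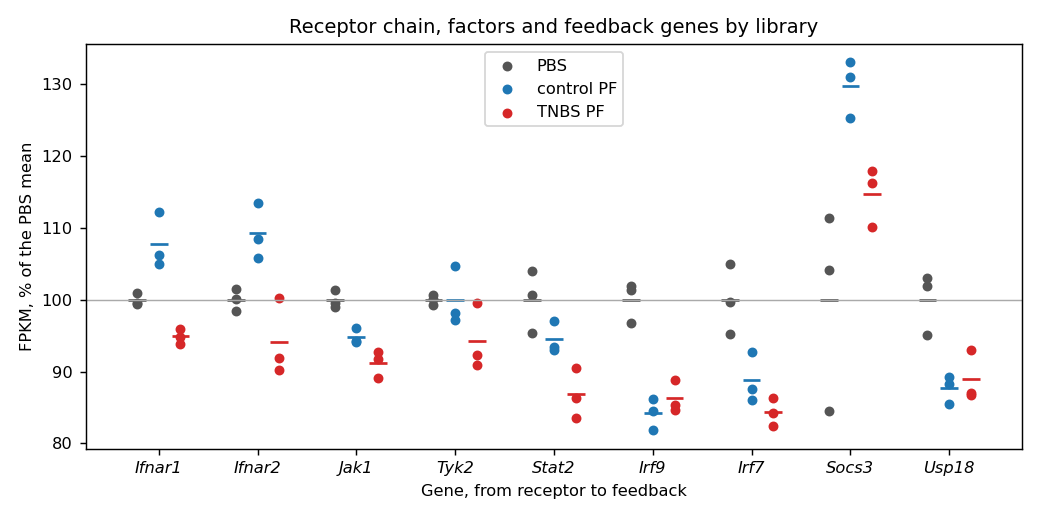
FPKM of receptor, kinase, factor and feedback genes in each library as a percentage of the PBS mean (points; bars are group means). Ifnar1 and Ifnar2 average 107.8% and 109.3% in control PF and 94.9% and 94.1% in TNBS PF, while Irf9 lies below 90% in all 6 fluid libraries.

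The feedback gene Socs3, induced through Stat3 by cytokines of the gp130 family, was higher in control PF than in PBS (0.36, SE 0.0732, adjusted p = 0.0226). It was the single feedback gene of 6 tested that passed there, where 1.02% of all tested genes were called higher. This call was lost without any 1 control PF library, with adjusted p up to 0.117 over the alternatives. It measured 14.4, 11.7 and 15.4 FPKM in PBS, 17.3, 18.4 and 18.1 in control PF, and 16.3, 15.2 and 16.1 in TNBS PF. The other list member called was Pias1, an inhibitor of STAT signalling, lower in TNBS PF against PBS (-0.21, adjusted p = 0.0104), where 8.88% of all tested genes were. Of 16 tested genes of nucleic acid sensing upstream of interferon, Ddx58 was lower in control PF against PBS (-0.24, adjusted p = 0.00413). It encodes the RNA sensor RIG-I and measured 39.6, 37.9 and 38.8 FPKM in PBS, 31.7, 34.2 and 32.4 in control PF, and 31.6, 31.1 and 32.6 in TNBS PF. In TNBS PF against PBS 5 of the 16 were lower and 1 higher, against 8.88% and 7.8% of all tested genes, with the adaptor Ticam1 (-0.35, adjusted p = 0.00388), Ddx58 (-0.28, adjusted p = 0.000215) and the endosomal sensor Tlr3 (-0.21, adjusted p = 0.00914) lower and the RNase H2 subunit Rnaseh2a higher (0.21, adjusted p = 0.0264). The Rnaseh2a call was lost without PBS 1 or any 1 TNBS PF library (adjusted p up to 0.077). Ticam1 was the single one of the 16 lower in TNBS PF against control PF (-0.28, adjusted p = 0.0215), where 5.45% of all tested genes were. Its call was lost without control PF 3, TNBS PF 1 or TNBS PF 3 (adjusted p up to 0.0851).

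Among 57 tested further interferon-stimulated genes, 9 were lower and 0 higher in control PF against PBS, where 1.14% and 1.02% of all tested genes were called. In TNBS PF against PBS 33 were lower and 1 higher, against 8.88% and 7.8% of all genes. In TNBS PF against control PF 14 were lower and 2 higher, against 5.45% and 5.15%. In control PF the largest differences were in Ifi207, a DNA-binding HIN-200 gene (-0.49, adjusted p = 0.00043), Gm4951 (-0.29, adjusted p = 0.032), and the immunity-related GTPase genes Igtp (-0.28, adjusted p = 0.00165) and Irgm1 (-0.22, adjusted p = 0.0337). The calls of Gm4951 and Irgm1 were each lost without control PF 1, control PF 3 or PBS 2, that of Gm4951 also without PBS 1 and that of Irgm1 also without PBS 3 or TNBS PF 1, with adjusted p up to 0.124 and 0.126. In TNBS PF against PBS, the largest were in Ifi207 (-0.62, adjusted p = 7.88e-06), Gm4951 (-0.51, adjusted p = 0.000161), Iigp1 (-0.47, adjusted p = 9.01e-06) and Gbp2 (-0.42, adjusted p = 6.22e-05). Gbp2, a guanylate-binding protein gene, had its 3 lowest values in TNBS PF, with 60.3, 61.7 and 58.0 FPKM in PBS, 55.7, 60.0 and 55.0 in control PF, and 47.7, 44.2 and 42.2 in TNBS PF. It was the largest fall of this list in TNBS PF against control PF (-0.34, adjusted p = 0.000456), and Iigp1 (-0.29, adjusted p = 0.000624) and Ifi47 (-0.23, adjusted p = 0.00694) were lower too. The 2 that rose in that comparison, named after their values were seen, were the chemokine gene Ccl5 (0.17, adjusted p = 0.0354), which was also the 1 higher against PBS (0.15, adjusted p = 0.0434), and the necroptosis effector Mlkl (0.13, adjusted p = 0.0299).

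In the annotation that the authors deposited with the table, 24 of the 38 genes carried the term defense response to virus, as did 227 of 21959 genes in all, and 23 of 38 carried innate immune response, as did 465 in all. Cellular response to interferon-beta was carried by 4 of 38 and by 58 in all, and response to interferon-beta by 2 and 14. The 38 were chosen as interferon-stimulated genes, so these shares are a description and not a test. Besides the Ifit block on chromosome 19 and the Parp block on chromosome 16, 4 further pairs of neighbours lie within 100 kb gap of each other, namely Rsad2 with Cmpk2, Oasl2 with Oasl1, Oas1g with Oas1a, and Mx1 with Mx2.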

How the data were processed

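RNA sequencing gave 1 value per gene and library, in FPKM, in the table the authors deposited. Reads were trimmed with cutadapt 1.15 and the build was mm10, per the submitters' processing notes. Aligner, counter and strand setting: not given in the sources used here. Low FPKM values stepped in whole fragments: for values under 1000 fragments, 97.2 to 97.3% lay within 0.01 of a whole number, which gave the depth of each library. At these depths 1 fragment in a 1 kb transcript is worth 0.0391 to 0.056 FPKM.

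Genes reaching FPKM 1 in 3 or more libraries (10537 of 21959) were fitted as log2(FPKM + 1) with limma 3.58.1 in R 4.3.3, with all 9 libraries in 1 model with an intensity trend, and p-values were adjusted by Benjamini-Hochberg over all tested genes, with a threshold of 0.05. Fold changes on this scale understate those of low genes. Percentages lower compare group means of FPKM. The procedure was also run on simulated data, whose outcome is not given here, so no claim about these calls rests on it. Alternatives were another pseudocount, no filter or a stricter one, other scalings, only the 6 libraries compared, a replicate block, no trend, limma voom on the recovered fragments, and each library left out.

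The members and lists were chosen with earlier results of these data known. All 38 members are described. From each list of surrounding genes the text names up to 4 with the largest change past the threshold in each comparison, or the one with the smallest p where none passed, and always Ifnar1, Ifnar2, Jak1 and Tyk2. Some genes that this rule names are not reported here. Promoters came from RefSeq (GRCm38.p6) and gene positions from GENCODE M21. No 2 libraries held identical values.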

Additional observations from a re-analysis of the deposited data

How the results depend on the processing

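No called value of a named gene changed sign in the 19 alternatives. Over 3294 pairs of a gene's value and an alternative, 3051 stayed as in the main fit, called or not called, 189 lost a call and 54 gained one. The 3294 include values that had no call to lose, so they do not give the share of calls lost. Ccl5, Mlkl and the cell type markers were not recomputed. With no filter, TNBS PF against control PF had 3 called members (main count 5) and control PF against PBS had 5 (main count 15), with 103 of all genes in the latter (main count 227). With no intensity trend the counts were 3, 7 and 117. With limma voom they were 12, 22 and 374. Leaving out 1 library gave 2 to 8 members, 660 to 1254 genes in all (main count 1117) and a member median of -0.107 to -0.0523 in TNBS PF against control PF. It gave 5 to 15 members and 115 to 301 genes in control PF against PBS, and 28 to 31 members and 1148 to 1737 genes in all (main count 1758) in TNBS PF against PBS, where the lowest count of genes came without TNBS PF 3. The cause was not tested. The member medians in TNBS PF against PBS stayed between -0.27 and -0.21. Deviations from the group means correlated weakly between libraries with the same replicate number (r from -0.10 to 0.07 over 9 pairs). The same held for the 18 pairs with other numbers (r from -0.08 to 0.08). Of 9 libraries, 2 correlated best with both others of their own number, and how many would do so by chance was not computed. The labels do not state whether the numbers pair libraries, and these correlations cannot exclude it. With a replicate block, control PF against PBS had 9 called members, TNBS PF against control PF 6 and TNBS PF against PBS 30. With 3 libraries a group and a median standard error of 0.0545 on the log2 scale, differences of the size seen between the fluids lie near the limit of detection for many members.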
